A study of Mus musculus with 6 samples.

Results

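The genes described here are 10 markers and regulators of blood vessels, Pecam1, Cdh5, Kdr, Flt1, Tek, Tie1, Emcn, Vwf, Vegfa and Angpt2, measured in mouse skin scars on Affymetrix exon arrays. Each was taken from rows of the deposited table whose only annotated gene symbol was that gene, with the row of highest mean where a gene had several, and all 10 were found among 20255 genes. The 6 whole skin biopsies of wound scars came from high-regeneration and low-regeneration mice (3 samples each), and each of days 4, 6 and 9 after wound closure gave 1 sample of either group. The design text speaks of no regenerated follicles in the group that the sample labels call low. Strain, genotype, age and sex are not stated in the labels used here, which name no treatment beyond the wound. The biopsies hold the whole skin, so fewer endothelial cells and less RNA per endothelial cell cannot be told apart in any value below.

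Blood vessels grow into a wound under the direction of vascular endothelial growth factor A, encoded by Vegfa and made by keratinocytes, macrophages and other cells short of oxygen. Endothelial cells, which line the vessels, read it through the receptor Kdr (VEGFR2), the main signalling receptor, and Flt1 (VEGFR1), which binds the ligand tightly and can act as a decoy. A further pathway stabilises or loosens vessels: the receptor Tek (Tie2) is activated by Angpt1, which mural cells make, and is mostly opposed by Angpt2, which endothelial cells release, while Tie1 is a related receptor without a well-defined ligand of its own. Pecam1 and Cdh5 (VE-cadherin) hold endothelial cells together, Emcn (endomucin) is a surface mucin of capillaries and veins, and Vwf (von Willebrand factor) is a clotting protein stored in endothelial cells and platelets. In healing skin, vessels are abundant in granulation tissue and are later pruned as the scar matures.

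Promoter sequence from RefSeq (mouse build GRCm38.p6) was at hand for 6 of the 10 genes, namely Kdr, Flt1, Tek, Tie1, Emcn and Vegfa. The bases before the start site that lie outside the annotated gene are shown for Tie1 and Emcn, which are made by endothelial cells, and for Vegfa, whose pattern over the samples was the least like theirs. Capitals mark GGAAG on either strand (CTTCC where it lies on the other strand). It is a longer form of the core GGA(A/T) that transcription factors of the ETS family recognise. Other forms of that core, such as GGAA before another base, were neither marked nor counted.
Tie1: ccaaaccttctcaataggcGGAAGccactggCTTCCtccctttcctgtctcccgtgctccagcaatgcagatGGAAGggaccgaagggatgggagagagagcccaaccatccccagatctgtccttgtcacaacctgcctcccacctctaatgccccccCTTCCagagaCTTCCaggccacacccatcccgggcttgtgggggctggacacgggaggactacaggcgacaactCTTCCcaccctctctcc
Emcn: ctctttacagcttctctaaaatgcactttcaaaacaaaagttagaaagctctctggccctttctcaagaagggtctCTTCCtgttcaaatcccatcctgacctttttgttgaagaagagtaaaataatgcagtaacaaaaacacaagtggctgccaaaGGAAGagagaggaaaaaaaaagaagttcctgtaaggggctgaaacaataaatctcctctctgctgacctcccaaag
Vegfa: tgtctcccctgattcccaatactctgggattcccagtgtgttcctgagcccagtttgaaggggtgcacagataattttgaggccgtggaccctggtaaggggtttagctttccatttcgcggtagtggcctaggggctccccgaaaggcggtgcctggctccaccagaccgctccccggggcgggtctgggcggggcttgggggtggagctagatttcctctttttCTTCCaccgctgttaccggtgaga
The Tie1 stretch covers chr4:118489850-118490099 on the minus strand, the Emcn stretch chr3:137340828-137341061 on the plus strand and the Vegfa stretch chr17:46032378-46032627 on the minus strand. GGAAG occurred 6 times in the Tie1 stretch, 2 times in that of Emcn and 1 time in that of Vegfa. In the windows of the other 3 genes, which lie wholly or mostly inside the annotated gene and are not shown, it occurred 3 times for Flt1, 1 time for Kdr and 0 times for Tek. The windows of Kdr and Tek thus held no more matches than that of Vegfa. Over 32851 promoter windows of 250 bases, 64.1% held at least 1 match and 0.344% held at least 6. The hypoxia response core ACGTG, searched on both strands, was in none of the 3 stretches, and 16.6% of the windows held it. A further RefSeq window of Vegfa, inside the gene at chr17:46025164-46025413, held it 1 time. A match is a run of letters and not a measured binding site.

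All levels are log2 values as the authors deposited them, with array medians of 6.04 to 6.10. Pairs of arrays correlated at 0.968 to 0.990 over rows with 1 gene symbol. The low-regeneration sample of day 9 stood apart at Xist, at 12.77 against 5.75 to 7.30 in the others. It also stood apart at the Y-linked gene Uty, at 3.88 against 7.46 to 8.07. The Xist value of 7.30 was that of the low-regeneration sample of day 6, with the rest at 5.75 to 5.82, and its Uty value was 7.85. Sex and group thus cannot be told apart within the day 9 pair. The high-regeneration sample of day 4 held more RNA of fat and muscle than the others, with Adipoq at 7.08 against 4.32 to 5.43 and Acta1 at 8.30 against 6.26 to 6.75. Slopes without each of these samples are given below. The labelled tissue was borne out by skin markers: the epidermal keratin gene Krt1 lay at 13.63 to 13.78 and the collagen gene Col1a2 at 12.08 to 12.38.

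Vegfa, the ligand, stood at 8.33, 7.80 and 8.34 log2 units at days 4, 6 and 9 in high-regeneration scars, and at 8.05, 7.72 and 8.21 in the low-regeneration samples. In both groups day 6 was the lowest day, and both day 6 samples lay below the other 4, which held for 5.38% of the 15191 genes tested. The step from day 4 to day 6 was -0.53 in high-regeneration and -0.33 in low-regeneration scars, and that from day 6 to day 9 was 0.54 and 0.49. Averaged over the groups, day 6 was 0.74-fold of day 4. A limma F test of any difference among days, chosen after these values had been seen, gave an adjusted p of 0.257 for Vegfa (unadjusted 0.00470), so the dip did not pass the test over all genes. By that test 0 of the 10 genes and 0% of all genes passed, and 3 of the 10 (Tek, Emcn and Vegfa) had an unadjusted p under 0.05, against 16.1% of all genes.

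Kdr, the signalling receptor for this ligand, stood at 8.04, 8.15 and 8.12 at days 4, 6 and 9 in high-regeneration scars. In the low-regeneration samples it stood at 7.89, 8.40 and 8.41. The lowest and the highest sample were thus both of the low group, and the groups overlapped. The step from day 4 to day 6 was 0.51 in the low group and 0.11 in the high group, opposite in sign to that of Vegfa in both. Flt1, the decoy-like receptor, stood at 7.09, 7.11 and 7.14 in the high group and at 7.09, 7.18 and 7.33 in the low group. It was the member with the smallest spread in the high group (SD 0.024, n = 3), and its groups were level at day 4 and furthest apart at day 9.

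**Figure D1:**
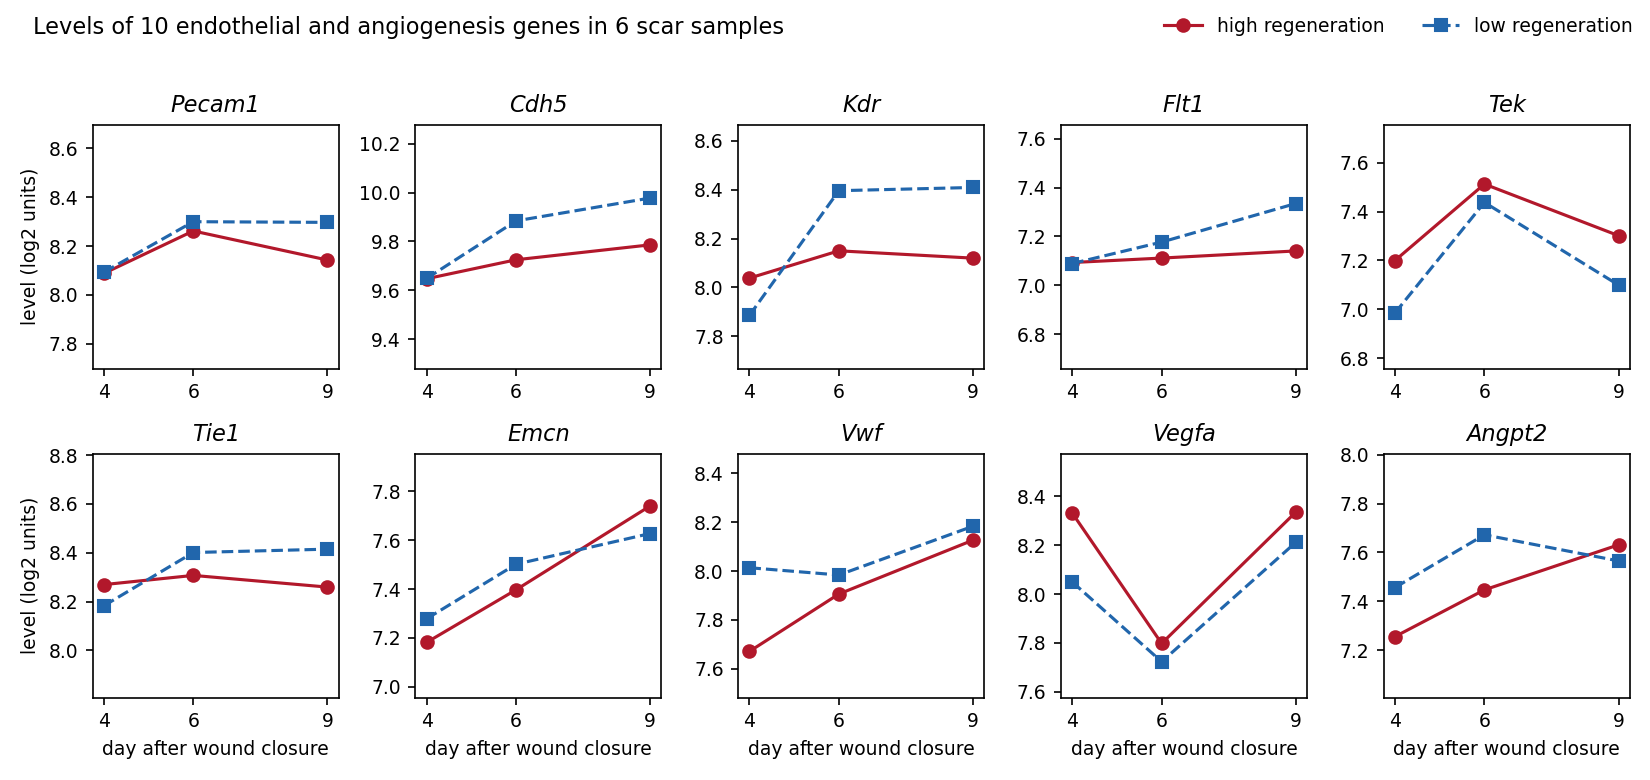
Level of each of the 10 genes (log2 units, each panel spanning 1 log2 unit) against day after wound closure, with circles and solid lines for the 3 high-regeneration samples and squares and dashed lines for the 3 low-regeneration samples, 1 sample a point. Vegfa is lowest at day 6 in both groups (7.80 and 7.72), Tek is highest there (7.51 and 7.44), and Emcn is higher at each later day in both.

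In the angiopoietin pathway, the receptor Tek stood at 7.20, 7.51 and 7.30 at days 4, 6 and 9 in high-regeneration scars and at 6.99, 7.44 and 7.10 in the low-regeneration samples. Both day 6 samples lay above the other 4, the mirror image of Vegfa, which held for 10.5% of genes tested. Day 6 was 1.30-fold of day 4 on average, with an F test adjusted p of 0.262 in limma (unadjusted 0.0133). Tie1, its relative, stood at 8.27, 8.31 and 8.26 in the high group and at 8.18, 8.40 and 8.41 in the low group. The high samples stayed within 0.05 log2 units of each other, while the 2 later low samples lay above all the rest.

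Angpt2, the antagonist of Tek, stood at 7.25, 7.45 and 7.63 in the high group and at 7.46, 7.67 and 7.56 in the low group, with both groups overlapping. The array held another row for Angpt2, of lower mean, which stood at 6.75, 7.69 and 7.63 in the high group and at 6.43, 7.28 and 7.45 in the low. The rows disagreed on size and on the group difference: day 9 minus day 4 was 0.38 and 0.11 (high and low) in the row used and 0.87 and 1.02 in the other, and high minus low was -0.12 in the row used and 0.31 in the other. Which row follows the Angpt2 transcript better was not tested. Angpt1, the activating ligand, is not one of the 10 genes but had the widest range among the angiopoietin and Tie genes, at 6.87, 8.55 and 7.99 in the high group and at 7.75, 8.60 and 8.16 in the low. Its day 6 samples averaged 2.41-fold of those of day 4 (F test adjusted p of 0.257 in limma), and like Tek it was highest at day 6 in both groups. The low value of the high-regeneration sample of day 4 widened that step, which was 1.68 in the high group and 0.85 in the low group.

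**Figure D2:**
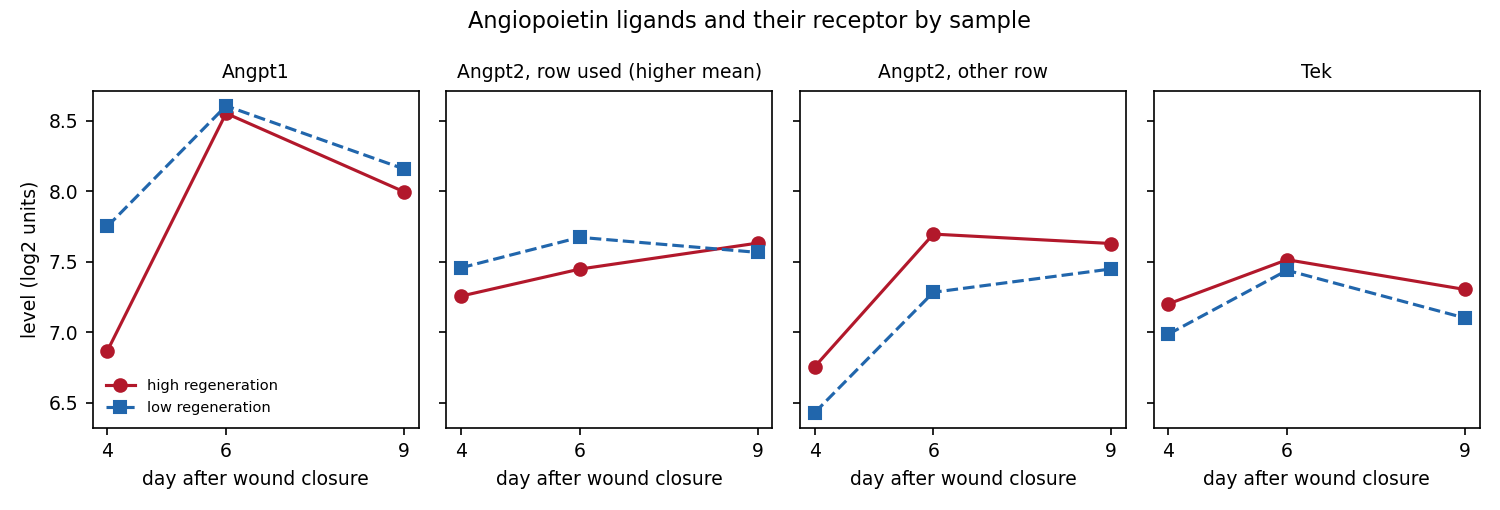
Level (log2 units, one common scale) against day after wound closure for Angpt1, both array rows of Angpt2 and the receptor gene Tek, with circles for high-regeneration and squares for low-regeneration samples, 1 sample a point. Angpt1 and Tek are highest at day 6 in both groups, and the Angpt2 row that was not used lies about 1 log2 unit higher at day 9 than at day 4 where the row used differs by 0.38 and 0.11.

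Among the junction and surface genes, Cdh5 stood at 9.65, 9.72 and 9.79 at days 4, 6 and 9 in high-regeneration scars and at 9.65, 9.88 and 9.98 in the low-regeneration samples. Each later day was higher in both groups, from the same starting level. Pecam1, whose product also sits on platelets and leukocytes, stood at 8.09, 8.26 and 8.14 in the high group and at 8.09, 8.30 and 8.30 in the low group. The summed level of 5 leukocyte markers was 10.20 to 10.54 in the high group against 10.48 to 10.59 in the low, ranges that overlapped, and at day 6 it was higher in the high-regeneration sample. None of the 5 was higher in all 3 pairs and 3 were lower, where 15.8% and 18.3% of genes tested were. Ptprc (CD45), the common leukocyte antigen, stood at 7.83 to 8.31 in the high group and 8.37 to 8.66 in the low and did not pass the test (adjusted p = 0.417 in limma). Their part in the Pecam1 values was not tested.

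Emcn stood at 7.18, 7.40 and 7.74 in the high group and at 7.28, 7.50 and 7.63 in the low. It was higher at each later day in both groups. Vwf stood at 7.67, 7.91 and 8.13 in the high group and at 8.01, 7.98 and 8.18 in the low group, so the high-regeneration sample of day 4 was the lowest by 0.24 log2 units. Because platelets carry Vwf as well, 6 megakaryocyte and platelet markers were examined. Their summed level was 9.90 to 10.28 in the high group against 9.59 to 10.01 in the low. In all 3 pairs 1 was higher and 0 lower (15.8% and 18.3% of genes tested). Day 9 lay above day 4 in both groups for 0 of them (28.8% of genes tested). The defining platelet integrin gene Itga2b stood at 6.87 to 7.18 in all samples. Pf4 and Ppbp varied more. Pf4 stood at 8.56, 9.01 and 8.54 at days 4, 6 and 9 in the high group and at 8.69, 8.28 and 7.85 in the low. Ppbp stood at 7.67, 8.42 and 8.54 in the high group and at 7.99, 8.49 and 7.60 in the low. The gene higher in all 3 pairs was Treml1, by 0.22 ± 0.06 (SD of 3 pairs). The part of platelet RNA in the Vwf values was not tested. Another array row named Vwf lay at 3.36 to 4.12 and was not used, as its mean was lower.

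Scars with high and low regeneration were then compared at matched days, the main contrast of the design. Of the 10 genes 0 passed limma's test with day as a block (adjusted p under 0.05), where 0.0527% of the 15191 genes tested did. At an unadjusted p under 0.05 the count was again 0 of 10, against 10.1% of all genes. Tek differed most, being higher in the high-regeneration sample of all 3 pairs by 0.16 ± 0.08 (log2 scale, SD over the pairs, n = 3), or 1.12-fold, with an adjusted p of 0.503 in limma. Vegfa was also higher in all 3 pairs, by 0.16 ± 0.11 (adjusted p = 0.534 in limma). Pecam1 (-0.066 ± 0.078), Cdh5 (-0.12 ± 0.10) and Vwf (-0.16 ± 0.16) were lower in all 3 pairs, although the day 4 differences were only -0.0050 for Pecam1 and -0.0013 for Cdh5.

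Over all genes tested, 15.8% were higher and 18.3% lower in all 3 pairs, so 2 and 3 of 10 lay near or somewhat above the background, and after quantile normalization and median centring the count of lower genes was 2 and 4. The sign of the 5 others differed between pairs: Kdr, Flt1 and Tie1 were above 0 at day 4 and below it at days 6 and 9, and Emcn and Angpt2 were below 0 at days 4 and 6 and above it at day 9. Kdr had the widest pair differences, at 0.15, -0.25 and -0.29. The median over the 10 genes was -0.075, beside -0.0028 over all genes tested. By day the median was 0.0014, -0.086 and -0.11. The 95% intervals are those of limma, which draws on the variance of all genes and not only on the 3 pairs. All 10 lay within 0.5 log2 units of 0 on either side. The widest was that of Kdr from -0.41 to 0.15, and that of Tek ran from -0.0064 to 0.33. As separate animals are not documented, these intervals do not bound a difference between mice.

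Leaving out 1 pair moved most of these differences by over 1.5 times. Without the day 4 pair Kdr was at -0.27 (unadjusted p of 0.0210 in limma), Flt1 at -0.13, Tie1 at -0.12, Emcn at 0.0042, Vwf at -0.068, Vegfa at 0.099 and Angpt2 at -0.080. Without the day 6 pair Kdr was at -0.068, Tie1 at -0.034, Emcn at 0.0081 and Angpt2 at -0.068. Without the day 9 pair, which differs at Xist, Pecam1 was at -0.021, Kdr at -0.047, Flt1 at -0.031, Tie1 at -0.0036, Emcn at -0.10 and Angpt2 at -0.21. Cdh5 and Tek stayed within 1.5 times of their values in all 3 cases. After quantile normalization Emcn was at -0.016. For Tek the unadjusted p was under 0.05 after quantile normalization (0.0411), with the lowest 50% of genes by mean left out (0.0498) and with a variance trend (0.0480), and its adjusted p was at least 0.452 under all alternatives run.

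**Figure D3:**
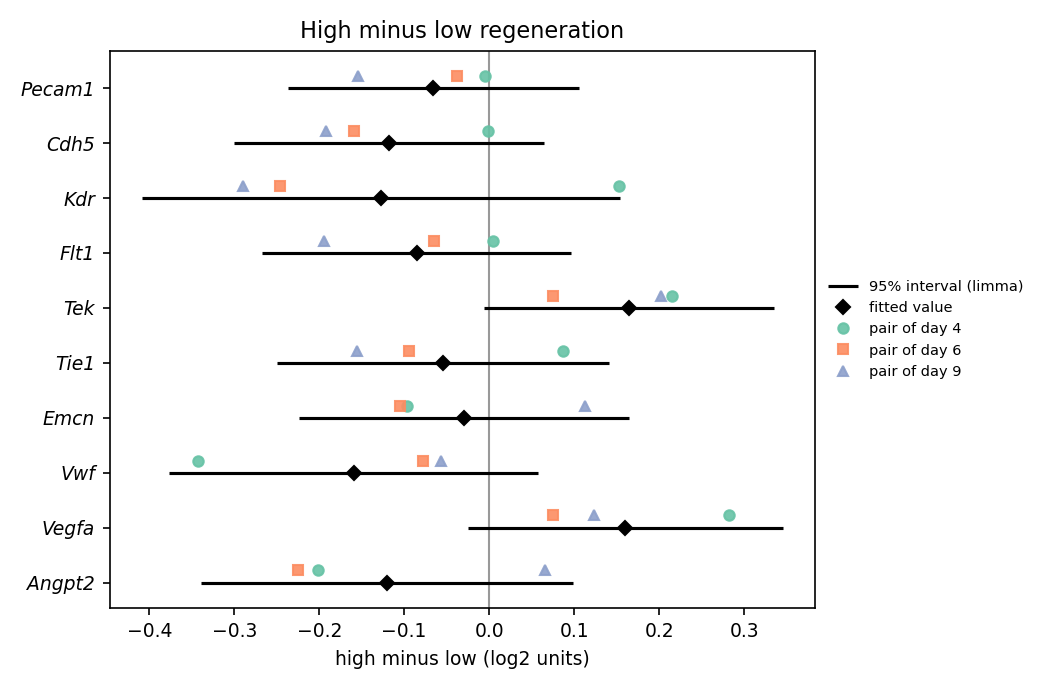
High minus low regeneration in log2 units for each gene, with the fitted value (diamond), its 95% interval from limma (line) and the difference within each day pair (circle for day 4, square for day 6, triangle for day 9). All 10 intervals include 0, and the 3 pair differences share a sign for Pecam1, Cdh5, Tek, Vwf and Vegfa.

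The next comparison was between days, with the group as a covariate. Samples of a date were treated as independent in this fit, and day and date cannot be told apart. In both groups day 9 lay above day 4 for 9 of 10 genes, where 28.8% of the genes tested did so, the exception being Tie1 in the high group (-0.010). The count was 8 after quantile normalization and 10 after centring of the array medians. By a stricter rule, both day 9 samples lay above both day 4 samples for 7 genes (Pecam1, Cdh5, Kdr, Flt1, Emcn, Vwf and Angpt2), against 21.5% of genes tested. For 7 genes too, with Tek and Tie1 in place of Vwf and Angpt2, both day 6 samples lay above both day 4 samples (21.5% of genes tested). Leaving out a sample makes this rule easier to meet. The count of genes with their day 9 samples above their day 4 samples was then 10 without the high-regeneration sample of day 4, 7 without the low-regeneration sample of day 4, 8 without the high-regeneration and 9 without the low-regeneration sample of day 9, against 32%, 38.5%, 33.4% and 32.2% of genes tested. With the mean of all rows of a gene and no sample left out it was 6.

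Sizes were small. Emcn had the steepest slope, 0.090 ± 0.018 log2 units per day (SE, adjusted p = 0.181 in limma), and day 9 exceeded day 4 by 0.56 in high-regeneration and 0.35 in low-regeneration scars, 1.37-fold on average. Vwf had a slope of 0.063 ± 0.020 (adjusted p = 0.245 in limma) and Cdh5 one of 0.045 ± 0.018 (adjusted p = 0.297 in limma). None of the 10 genes passed over all genes, where 0% of genes did. At an unadjusted p under 0.05 these 3 genes were called, against 16.2% of genes tested, 6.94% with a positive slope. Kdr had a slope of 0.056 ± 0.030, Angpt2 0.046 ± 0.022, Flt1 0.029 ± 0.017, Vegfa 0.029 ± 0.047, Pecam1 0.022 ± 0.020, Tie1 0.020 ± 0.019 and Tek 0.013 ± 0.036 (all SE). The median slope of the 10 genes was 0.037 log2 units per day, and that of all genes tested was -0.0044.

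Single samples moved slopes of all members but Emcn and Vwf by over 1.5 times. With the low-regeneration sample of day 4 left out, slopes per day were 0.0049 for Pecam1, 0.028 for Cdh5, 0.012 for Kdr, -0.020 for Tek, -0.0011 for Tie1 and 0.054 for Vegfa. With the low-regeneration sample of day 9, the one apart at Xist, left out, they were 0.014 for Flt1, 0.042 for Tek, 0.012 for Tie1, -0.0095 for Vegfa and 0.079 for Angpt2. The steepest slope, that of Emcn, stayed between 0.073 and 0.11 whichever sample was left out. With the high-regeneration sample of day 4 left out, slopes were -0.0095 for Tek, 0.079 for Vegfa and 0.029 for Angpt2. With that of day 9 left out, they were 0.044 for Pecam1, 0.091 for Kdr, 0.032 for Tek, 0.040 for Tie1, 0.00045 for Vegfa and 0.028 for Angpt2. For Tek and Vegfa a straight line leaves out most of the pattern, since their day 6 samples lay outside the range of the other days. With the mean of both array rows in place of the brighter one, the Angpt2 slope was 0.11 and the Vwf slope 0.019, and after median centring the Tek slope was 0.021.

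**Figure D4:**
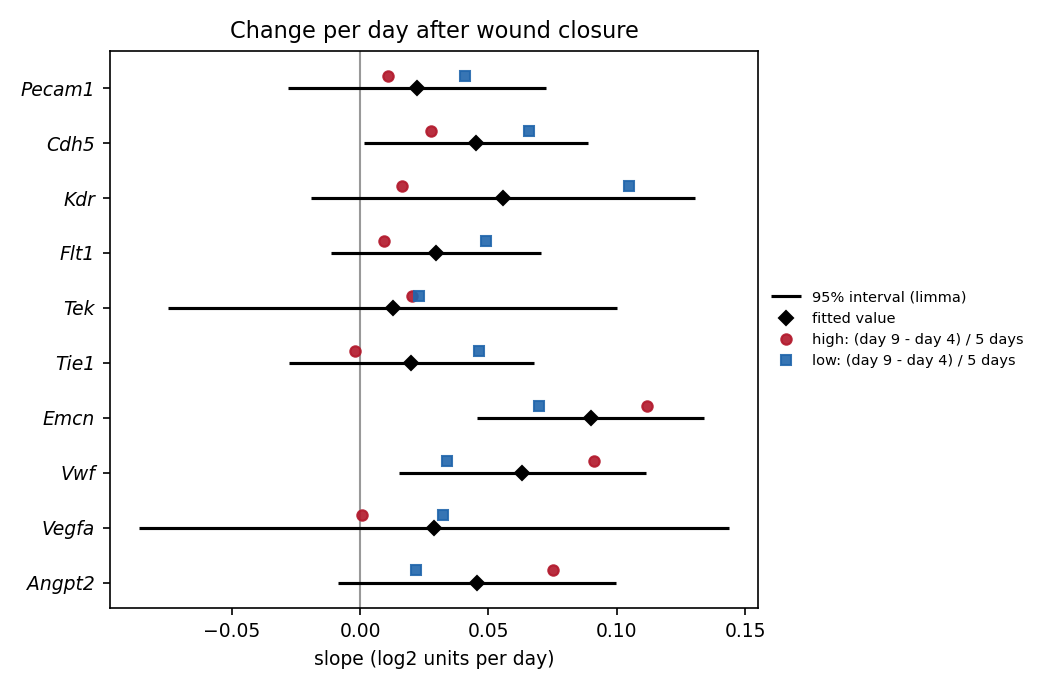
Slope in log2 units per day after wound closure for each gene, with the limma value (diamond), its 95% interval (line) and, for each group, day 9 minus day 4 divided by the 5 days between them (circle for high, square for low regeneration). The intervals of Cdh5, Emcn and Vwf lie above 0 before adjustment over all genes, and 0 of the 10 genes passed after it.

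The difference of day 9 from day 4 was larger in the low than in the high group for 7 of 10 genes, where 50.2% of genes tested had this order. The 7 were Pecam1, Cdh5, Kdr, Flt1, Tek, Tie1 and Vegfa, with the widest gap at Kdr (0.52 against 0.082). Emcn, Vwf and Angpt2 had the larger difference in the high group, as at Vwf with 0.46 against 0.17. The difference in slope itself did not pass for any of the 10 genes (interaction in limma, lowest adjusted p of 0.988). At an unadjusted p under 0.05 the count was 0 of 10, against 3.96% of genes tested. For Kdr the slope of the high group minus that of the low was -0.083 per day, with a 95% interval from -0.23 to 0.063.

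The 10 genes did not share a single pattern over the 6 samples. Kdr and Tie1 were the most alike pair (Pearson's r of 0.985 over 6 samples), and Cdh5 followed Kdr (0.932) and Flt1 (0.928). Emcn, Vwf and Angpt2 formed pairs with each other (0.838 for Emcn with Angpt2 and 0.834 for Emcn with Vwf). Tek was most like Pecam1 at 0.510, and Vegfa had no r above 0.113 with any other member, the lowest being -0.599 with Pecam1. These values describe 6 samples that share dates in pairs, and they carry no test.

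**Figure D5:**
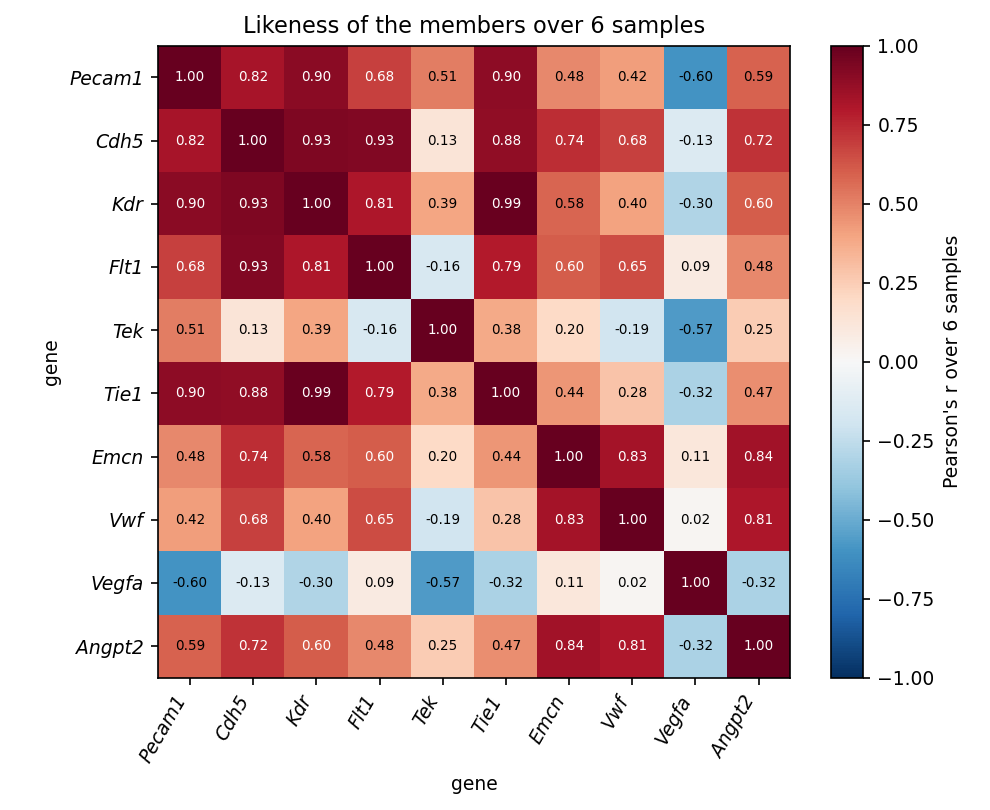
Pearson's r between each pair of the 10 genes over the 6 samples, from blue (-1) to red (1), with genes on both axes in the same order. Pecam1, Cdh5, Kdr, Flt1 and Tie1 have high values with each other, Emcn, Vwf and Angpt2 with each other, and Vegfa and Tek stand apart.

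The mean of the 8 endothelial-cell genes (all members but Vegfa and Angpt2), each centred on its own mean, stood at -0.14, 0.0093 and 0.040 at days 4, 6 and 9 in high-regeneration scars and at -0.14, 0.098 and 0.13 in the low. In this mean both groups were thus level at day 4, and at either later day the low-regeneration sample lay above the high-regeneration one. The single genes were not all level at day 4, where high minus low ran from -0.34 for Vwf to 0.21 for Tek. Against the mean, Tek was higher in the high-regeneration sample at days 6 and 9, and Emcn at day 9. Among 15181 other genes, those most like this mean were Rab39b (r of 0.998), Trp53bp1 (0.994), Gucy1a1 (0.985), Sparcl1 (0.983), Elp4 (0.980), Krt1 (0.978), Ston2 (0.977) and Uqcrfs1 (0.975). Gucy1a1 encodes a subunit of the nitric oxide receptor of vascular smooth muscle and Sparcl1 a matrix protein made around vessels, while Krt1 is an epidermal keratin gene. Rab39b was dim, with a mean of 5.96 against a lowest array median of 6.04. Trp53bp1 and Krt1 varied little, spanning 0.12 and 0.15 log2 units over the 6 samples. An r of at least 0.9 was reached by 127 of the 15181 genes, or 0.837%.

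Other genes of endothelial identity gave a like picture in direction over days, but not in which group changed more. Of 21 listed, 20 were measured, 15 of them had day 9 above day 4 in both groups and 2 had it below (28.8% and 34.9% of genes tested). Myct1, an endothelial transcript, had a slope of 0.10 ± 0.020 log2 units per day (SE, adjusted p = 0.180 in limma) and Cd93, a surface receptor of endothelial cells, 0.073 ± 0.019. The 2 below were Plvap and S1pr1. Plvap had a slope of -0.071 ± 0.021 (SE, adjusted p = 0.232 in limma), near that of Cd93 in size and opposite in sign. Between groups 0 of the 20 were higher and 5 lower in all 3 pairs, where 15.8% and 18.3% of genes tested were. Ecscr, a regulator of endothelial signalling, differed by -0.19 ± 0.11 and Eng (endoglin), a co-receptor for TGF-beta ligands, by -0.18 ± 0.22 (SD of 3 pairs). Day 9 minus day 4 was larger in the low group for 8 of the 20 (50.2% of genes tested), against 7 of the 10 members. Its median was 0.19 (high) and 0.095 (low), against 0.092 and 0.22 for the members. At days 4, 6 and 9 the median of high minus low was -0.050, -0.11 and 0.027. A difference between the lists was not tested. The list medians were -0.045 for high minus low and 0.025 per day for the slope, and 0 genes passed either test.

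Of 13 transcription factors of endothelial cells, 4 had day 9 above day 4 in both groups and 3 below, where 28.8% and 34.9% of genes tested did. A difference of this list from the others was not tested. Gata2 differed by -0.31 (high) and -0.37 (low), and Lyl1 by -0.11 and -0.54. Gata2 was highest at day 6 in both groups, at 7.95 (high) and 7.57 (low). Between groups 4 of the 13 were higher and 2 lower in all 3 pairs (15.8% and 18.3% of genes tested). Gata2 was among those higher, by 0.29 ± 0.08 (SD of 3 pairs, adjusted p = 0.361 in limma). Klf2, which blood flow induces in endothelium, was higher in the high-regeneration sample of all 3 pairs by 0.71 ± 0.12 log2 units, and Klf4, which keratinocytes also make, by 0.57 ± 0.18 (SD of 3 pairs, adjusted p = 0.135 and 0.212 in limma). Neither passed over all genes, and which cells of the biopsies gave these differences was not tested.

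Of the VEGF ligands and receptors 8 of 10 were measured, of which 2 were higher and 0 lower in all 3 pairs (15.8% and 18.3% of genes tested). Vegfc, the ligand of lymphatic growth, stood higher at day 9 than at day 4 by 0.59 (high) and 0.12 (low), and Vegfd differed by -0.21 and -0.37. Of 10 genes of sprouting tip cells, 7 had day 9 above day 4 in both groups and 2 below, where 28.8% and 34.9% of genes tested did. Pdgfb, with which endothelial cells recruit pericytes, had a slope of 0.088 ± 0.020 (SE, adjusted p = 0.201 in limma) and Dll4, a Notch ligand, 0.079 ± 0.032. The hypoxia-induced vasodilator gene Adm ran the other way, at -0.34 and -0.36 from day 4 to day 9, and was higher in all 3 pairs by 0.28 ± 0.08 (SD of 3 pairs).

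Of 8 arterial genes, 4 had day 9 above day 4 in both groups and 2 below, where 28.8% and 34.9% of genes tested did. Hey1, a Notch target, had a slope of 0.076 ± 0.018, and Unc5b, a netrin receptor, one of -0.074 ± 0.034 (SE). The connexin gene Gja4 was higher in all 3 pairs, by 0.19 ± 0.08 (SD of 3 pairs). Of 8 genes of veins and activated endothelium, 3 lay above and 3 below (28.8% and 34.9% of genes tested). Ephb4, a venous receptor, had a slope of 0.062 ± 0.017 and Ackr1, a chemokine-binding protein of venules, one of -0.046 ± 0.038 (SE). Sele (E-selectin), which inflamed endothelium displays, was higher by 0.40 ± 0.32 and Nr2f2, which sets venous identity, was lower by a difference of -0.16 ± 0.03 (SD of 3 pairs). No gene of these lists passed either test.

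Of 12 genes of pericytes and vascular smooth muscle, 4 had day 9 above day 4 in both groups and 3 below (28.8% and 34.9% of genes tested). Rgs5, a pericyte gene, had a slope of 0.11 ± 0.04, while Cnn1 and Des, genes of contractile cells, had -0.19 ± 0.05 and -0.13 ± 0.02 (SE). Rgs5 was at 10.26 in the high-regeneration sample of day 4, the lowest of all samples, against 11.01 to 11.34 in the others, and high minus low was -0.42 ± 0.31. Des is also a gene of skeletal muscle, whose 5 measured markers had a summed level of 9.95 in that sample against 8.56 to 8.91 in the others, and high minus low of Des was 0.36 ± 0.22 (SD of 3 pairs). The part of muscle RNA in the Des values was not tested.

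Of 14 hypoxia genes, 6 had day 9 above day 4 in both groups and 4 below, where 28.8% and 34.9% of genes tested did. Hif1a, the oxygen-regulated transcription factor, had a slope of 0.10 ± 0.02 and Egln3, an enzyme that marks such factors for decay and is itself induced by them, 0.090 ± 0.050 (SE). Egln3 stood at 9.38, 8.86 and 9.80 in the high group and at 9.51, 9.45 and 9.87 in the low. It was lowest at day 6 in both groups, but its low-regeneration sample of day 6 lay above the high-regeneration sample of day 4. Adm, of the same list, was highest at day 6 in both groups, at 7.30 (high) and 6.93 (low). A link of this list to the Vegfa values was not tested. Of 8 angiogenesis inhibitors measured, 3 lay above and 3 below from day 4 to day 9 (28.8% and 34.9% of genes tested). In all 3 pairs 4 were higher and 1 lower (15.8% and 18.3% of genes tested). Adamts1, a secreted protease that binds VEGF, was higher in the high-regeneration samples by 0.95 ± 0.22 and Thbs1 (thrombospondin 1) by 0.51 ± 0.12 (SD of 3 pairs, adjusted p = 0.144 and 0.192 in limma). Adamts1 stood at 10.46, 10.39 and 10.56 in the high group and at 9.38, 9.69 and 9.48 in the low, which did not overlap. Sema3a, a repellent of endothelial cells and axons, was lower by a difference of -0.43 ± 0.25, and Col18a1, the source of endostatin, differed by -0.032 ± 0.055. Sema3a had a slope of 0.091 ± 0.026 and Col18a1 one of 0.060 ± 0.019 (SE). None of the hypoxia genes or inhibitors passed over all genes.

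Markers of the other cells in the biopsies gave the following summed levels. Macrophage markers (7 measured) lay at 12.42 to 12.70 in high-regeneration and 12.52 to 12.58 in low-regeneration scars, keratinocyte markers (8 measured) at 15.02 to 15.18 and 14.98 to 15.18, and dermal fibroblast markers (7 measured) at 14.55 to 14.68 and 14.63 to 14.71. The ranges overlapped for each list. Of the fibroblast markers 5 had day 9 above day 4 in both groups and 0 below, as many endothelial genes did. Of the keratinocyte markers 2 lay above and 4 below, where 28.8% and 34.9% of genes tested did. Adipocyte markers (6 measured) were all below. Their part in the endothelial values was not tested.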

How the data were processed

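RNA of 6 mouse scar biopsies (3 with high and 3 with low regeneration) was measured on exon arrays. The authors deposited log2 values, a scale read from their range since no label states it. Expression Console (Affymetrix) and PLIER, a method that sums up the probes of a set, are named per the submitters' processing notes. Settings, background correction, genome build and filters are not given in the sources at hand. Of 53145 rows, 25466 had 1 gene symbol in the platform annotation, of which 24868 matched the GRCm38.p6 gene table by identifier. Rows with several symbols or none were left out. The row of highest mean stood for each of 20255 genes, and the lowest 25% by mean were left out, leaving 15191. All 10 genes passed this filter, which uses the mean over all samples.

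Tests used limma 3.58.1 in R 4.3.3 (lmFit, eBayes, two-sided, Benjamini-Hochberg over all genes tested, threshold 0.05): high against low with day as a factor, the slope per day with group as a covariate, and their interaction, with 2, 3 and 2 residual degrees of freedom. An F test on day as a factor was added after values had been seen. The day block rests on the design text, which gives each pair its own date. Deviations from the group means correlated across genes within each day (r of 0.500, 0.112 and 0.560 at days 4, 6 and 9). Nothing says which samples came from separate animals, so p-values reflect only how these samples vary, which may be technical, and the number of arrays limits the precision. The fits were tested on simulated data with known changes. The simulated samples shared no part within a day, so that trial cannot speak to the correlations within days given above.

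The 10 genes, the 20 other lists and the tests were chosen with earlier results of these data known. All 10 were named whatever their values. Of each vessel list the 2 with the largest change from day 4 to day 9 and the 2 with the largest group difference were named. Alternatives were quantile normalization, median centring, other filters, the mean of a gene's rows, a variance trend, no day term, no group term and leaving out samples. A symbol listed and not found among rows with 1 symbol was not analysed here.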

Additional observations from a re-analysis of the deposited data

How the results depend on the processing

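No test of high against low, of the slope or of their interaction called any of the 10 genes under any alternative run, and the lowest adjusted p in limma was 0.452, 0.140 and 0.985. Of 290 alternative values of single genes 281 kept their sign and 9 had the other sign. For high minus low, Emcn was 0.0042 without replicate 1 of both groups (the day 4 pair) and 0.0081 without replicate 2 (day 6), and Angpt2 was 0.093 with the mean of its rows. For the slope, Tek was -0.0095 without the high and -0.020 without the low sample of day 4, Tie1 -0.0011 without the low sample of day 4 and Vegfa -0.0095 without the low sample of day 9; the highest values with a sample left out were 0.042 for Tek (low, day 9), 0.040 for Tie1 (high, day 9) and 0.079 for Vegfa (high, day 4). For the difference in slope, Tek was -0.0039 after quantile normalization and Vwf -0.060 with the mean of its rows, whose dimmer row lies near the bottom of the scale. The median of the 10 genes ran from -0.088 to -0.039 (high minus low) and from 0.025 to 0.044 (slope) when samples were left out.

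Over all genes, the count that differed between high and low was 8, and it was 0 after quantile normalization, 5 after median centring, 0 with no filter and 0 to 35 when a day pair was left out. Without the replicate block (no day term) it was 6. For the slope 0 genes passed (2457 at an unadjusted p under 0.05), 7 without the group term and 0 to 130 when a sample was left out, the most without the high sample of day 6. For any difference among days 0 passed (2446 at an unadjusted p under 0.05), and 0 to 40 when a sample was left out. The causes were not tested. Leaving out samples was not run for the interaction, which would leave 1 residual degree of freedom. Alternatives for the counts of genes by sign were added after the data had been seen: day 9 lay above day 4 in both groups for 8 of the 10 genes after quantile normalization and for 10 after median centring.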

Other observations

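Of 7 lymphatic endothelial genes 5 were measured, and all 5 were higher in the high-regeneration than in the low-regeneration sample at day 9, by 0.68 log2 units for Lyve1, 0.51 for Mmrn1, 0.37 for Prox1, 0.34 for Reln and 0.30 for Pdpn. At day 4 all 5 were lower in the high-regeneration sample, with a median difference of -0.33. Over all genes tested, 49.1% were higher at day 9 and 52.1% lower at day 4, and a difference from the blood vessel genes was not tested. Prox1, the master regulator of lymphatic identity, stood at 9.32, 9.29 and 9.36 at days 4, 6 and 9 in high-regeneration scars and at 9.54, 9.78 and 8.99 in the low. The hyaluronan receptor gene Lyve1, which some macrophages also make, stood at 8.88, 9.45 and 9.20 in the high and at 9.37, 9.66 and 8.53 in the low. The low-regeneration sample of day 9, where Lyve1 and Prox1 were lowest, is the one that stood apart at Xist. The high-regeneration sample of day 4 is the one that held more RNA of fat and muscle. The part of either trait in these differences was not tested. The difference in slope did not pass for any of the 5 (adjusted p = 0.988 in limma), and at an unadjusted p under 0.05 the count was 1, Reln.

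Between the 2 array rows named Angpt2, the one left out for its lower mean had the larger values of day 9 minus day 4, 0.87 and 1.02 in the high and low groups.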
